A study of Sus scrofa with 5 samples.

Results

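Type 17 lymphocytes are the cells of the gut mucosa that transcribe the cytokine genes IL17A, IL17F and IL22. In the pig cecum they were taken as the cells with at least 200 detected genes, at least 2 UMIs (molecular barcodes that let each RNA molecule be counted once) summed over IL17A, IL17F and IL22, and 0 UMIs of the epithelial gene EPCAM. This rule found 1160 members among 72701 kept cells, 1.60% (95% exact binomial interval 1.51% to 1.69%). The members were then split by the T cell genes CD3E and CD3G. There were 291 CD3-negative members with 0 UMIs of both, which the rule calls ILC3-like, 770 CD3-positive members with 2 or more, and 99 members with 1 UMI that entered neither class. The members were chosen by their measured counts of IL17A, IL17F, IL22, EPCAM, CD3E and CD3G, so their values are given as a description with no test.

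The cells came from the cecal mucosa of male piglets of Large White sows, fed on their mothers' milk alone. The ages were d0, d1, d7, d14 and d21 after birth. Each age was 1 droplet library into which the cells of 5 piglets had been mixed, with other animals at each age. The count matrices do not separate the piglets, so age and the pool of piglets in a library cannot be told apart, and no test between ages was made. Intervals on shares and levels cover counting error only. The kept cells of d0, d1, d7, d14 and d21 numbered 15218, 14142, 10272, 16177 and 16892, with median UMI counts of 2859, 3005, 2340, 4121 and 2587. The d0 library stood apart by its mitochondrial counts, which made up 23.7% of all counts, against 11%, 8.95%, 5.51% and 7.94% in the 4 others. Pairs of libraries shared between 37 and 79 barcodes.

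As background, cells of this kind release their cytokines when myeloid cells give IL-23 and IL-1. IL-17A and IL-17F act with their shared receptor on epithelium and stroma and call in neutrophils. IL-22 has its receptor on epithelial cells, where it raises antimicrobial proteins, mucus and repair. The adaptive members of the family are T helper 17 cells and innate-like T cells such as γδ T cells. Group 3 innate lymphoid cells (ILC3) make the same cytokines without a T cell receptor and live on IL-7, whose receptor chain is IL7R. In the pig genome Sscrofa11.1, IL17A lies on chromosome 7 from 46013584 to 46017161 and IL17F beside it from 46058371 to 46066039. IL22 lies on chromosome 5 from 32599522 to 32604507, next to its relative IL26 from 32568189 to 32583278, and TAC3, the gene of the tachykinin neurokinin B, on the same chromosome from 22324927 to 22336464.

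Members were few around birth, and their share of kept cells was highest at d14. There were 12 members at d0, 60 at d1, 233 at d7, 520 at d14 and 335 at d21. Their share of kept cells was 0.0789% at d0 (0.0408% to 0.138%), 0.424% at d1 (0.324% to 0.546%), 2.27% at d7 (1.99% to 2.58%), 3.21% at d14 (2.95% to 3.50%) and 1.98% at d21 (1.78% to 2.20%). The intervals of d7 and d21 overlapped, and those of the other ages did not. A cell can reach 2 UMIs more easily where more RNA was captured, and with every cell thinned to 1000 UMIs the shares were 0.00722%, 0.198%, 1.62%, 1.78% and 1.47%, and the intervals of d7, d14 and d21 then overlapped. The thinning left out the cells under 1000 UMIs, so it ran on 13859, 12118, 7896, 14345 and 13588 cells. Among cells under 20% mitochondrial counts the d0 share was 0.202%.

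The CD3-negative and the CD3-positive members had different courses. From d0 to d21, CD3-negative members numbered 11, 53, 101, 59 and 67, which was 0.0723%, 0.375%, 0.983%, 0.365% and 0.397% of kept cells. CD3-positive members numbered 0, 4, 112, 431 and 223. The CD3-negative part of the members was therefore 91.7% at d0, 88.3% at d1, 43.3% at d7, 11.3% at d14 and 67 of 335 at d21. CD3-positive cells were present at d0, but 0 of 324 with EPCAM at 0 passed the cytokine rule, which allows a share of up to 1.13% (exact upper limit), and of such cells 2.00% passed at d1, 4.05% at d7, 7.80% at d14 and 3.21% at d21. Their median depths were 2164, 2824, 4434, 4419 and 4236.5 UMIs from d0 to d21, so that fewer UMIs were captured in those of d0 and d1. The CD3-negative class can hold T cells whose CD3E and CD3G counts were not captured, and after thinning to 1000 UMIs the CD3-negative part was 64.1% at d7, 25.0% at d14 and 48.5% at d21.

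**Figure D1:**
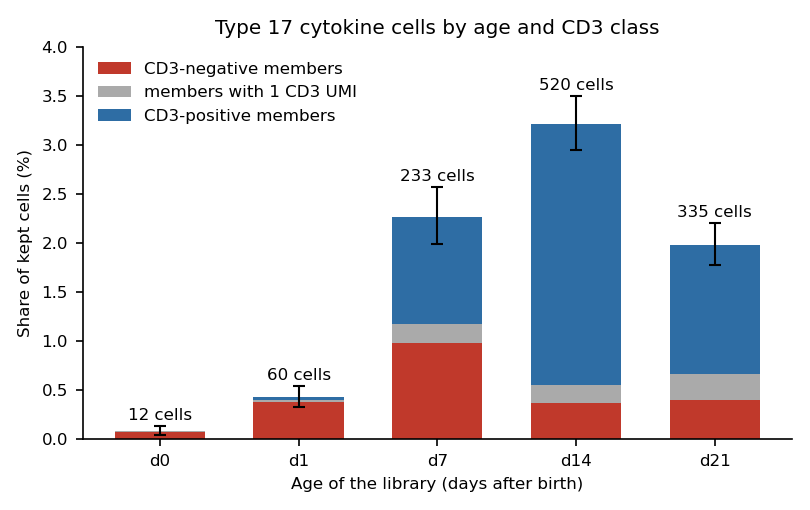
Share of kept cells (percent, y axis) that were members in the library of each age (x axis), stacked by CD3 class, with the exact 95% binomial interval of all members and their number above each bar. CD3-negative members made up most of the d0 and d1 bars and CD3-positive members most of the d14 and d21 bars.

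Cells of an epithelial gate also held cytokine UMIs. Of these cells (EPCAM of 2 or more, no CD3E or CD3G), 0.0516%, 0.418%, 0.570%, 0% and 0.317% held 2 or more cytokine UMIs at the 5 ages, at median depths of 6876, 7799, 17698, 8580 and 4792 UMIs. The exact upper limit of the 0% at d14 was 1.87%. At d0 and d1 this share was close to the member share of all kept cells, and from d7 on the member share was above it. In cells of a myeloid gate the share was at most 0.344% and in those of a fibroblast gate at most 0.559%, each highest value resting on 1 cell. The EPCAM condition mattered at the young ages, since only 60.0% and 57.1% of all cells with 2 or more cytokine UMIs had 0 EPCAM UMIs at d0 and d1, against 92.5%, 97.6% and 92.0% later. The 4 and 23 cells of d0 and d1 that had 1 EPCAM UMI resembled members in TAC3, at 50.9 and 26.7 per 10000 counts against 46.1 and 25.4 in members that the rule kept. Those with 2 or more EPCAM UMIs had TAC3 at 5.41 and 10.3.

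Just inside the rule stood cells with exactly 2 cytokine UMIs (6, 18, 42, 75 and 60 cells with EPCAM at 0), and just outside it those with exactly 1 (26, 31, 179, 279 and 237 cells). Levels below are summed counts per 10000 counts of the same cells. The TAC3 level was 52.1, 18.3, 14.2, 2.33 and 0.236 just inside and 45.6, 28.7, 7.00, 2.94 and 0.498 just outside. In EPCAM-negative cells without a cytokine UMI, TAC3 was at 1.79, 0.751, 1.37, 0.232 and 0.0402. The cells just outside held more TAC3 than the rest in each library, and more than those just inside at d1, d14 and d21.

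From d7 on, most members were well past the limit. The median member held 2.5, 3, 8, 8 and 7 cytokine UMIs at the 5 ages, and 492 of the 1160 (42.4%) held 10 or more. Members at d7, d14 and d21 contained 93.8%, 95.3% and 93.4% of all IL17A counts of their libraries and 92.7%, 95.8% and 87.8% of all IL22 counts, which the rule favours. Of genes that the rule did not use, members held 53.5%, 46.7% and 29.5% of all IL26 counts at these ages and 19.7%, 27.9% and 38.1% of TAC3 counts. Members were 2.27%, 3.21% and 1.98% of the cells there.

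The balance between the IL-17 genes and IL22 differed between the libraries. Of all members, 333 (28.7%) held IL17A or IL17F without IL22, 483 (41.6%) held IL22 without the IL-17 genes, and 344 (29.7%) held both. The IL22-only part of the members was 16.7% at d0, 21.7% at d1 (12.1% to 34.2%), 23.6% at d7 (18.3% to 29.6%), 40.0% at d14 (35.8% to 44.4%) and 61.2% at d21 (55.7% to 66.4%), so that the intervals of d7, d14 and d21 did not overlap. After thinning, this part was 25.0%, 19.5%, 35.9% and 61.0% from d1 to d21.

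Both CD3 classes had their highest IL22-only share at d21. Among CD3-negative members it was 18.2%, 17%, 28.7%, 69.5% and 70.1% at the 5 ages. Among CD3-positive members it was 20.5% at d7, 35.5% at d14 and 57.8% at d21, and at d1 2 of 4 cells. Transcripts of IL17F were found in 72.7% and 81.1% of CD3-negative members at d0 and d1, in 53.5% at d7, and in 22.0% and 20.9% at d14 and d21. IL22 transcripts were found in 27.3%, 41.5%, 57.4%, 89.8% and 88.1% of them.

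In level, IL22 was at 1.48, 7.61, 14.7, 14.8 and 29.6 per 10000 in CD3-negative members, and at 7.92, 10.7 and 19.8 in CD3-positive members at d7, d14 and d21. At d1, 133 of the 206 IL22 counts in members came from 1 cell. IL17A was at 0.848, 0.981, 7.84, 1.03 and 2.91 in CD3-negative members and at 16.1, 7.98 and 5.45 in CD3-positive members from d7 to d21. Thus IL17A was higher per count in the CD3-positive class in each of these 3 libraries, while IL22 was higher in the CD3-negative class.

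**Figure D2:**
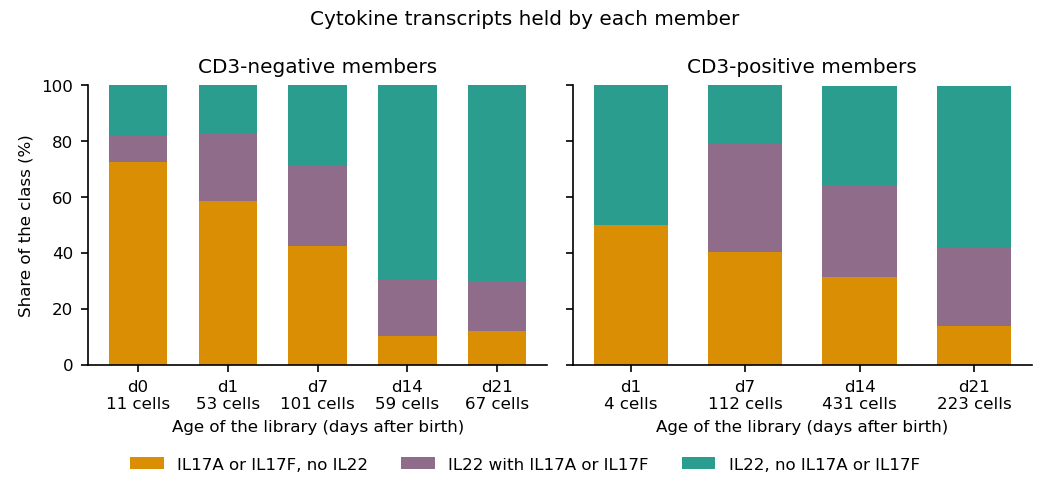
Share of each CD3 class (percent, y axis) by the cytokine transcripts its cells held, in the library of each age (x axis, with the number of cells). The part with IL22 and neither IL17A nor IL17F was 69.5% and 70.1% of CD3-negative members at d14 and d21, and 35.5% and 57.8% of CD3-positive members.

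The classes are described here with markers that the rule did not use. These are no independent check of the labels. CD247 and CD3D belong to the same receptor complex as CD3E and CD3G. IL7R and TAC3, given further below, were named as markers with earlier results of these data known. Of the T cell genes, CD247, the zeta chain of the receptor complex, was at 0, 0.196, 0.591, 0.466 and 0.327 per 10000 in CD3-negative members at d0 to d21, and at 2.87, 1.78, 2.11 and 2.14 in CD3-positive members at d1 to d21. CD6 had no count in CD3-negative members at d0, d1 and d7 and levels of 0.0933 and 0.182 at d14 and d21, against 0.657, 0.562 and 0.531 in CD3-positive members from d7 on. CD3D was captured poorly everywhere (0.0859 to 0.162 in other CD3-positive cells) and had 1 count in all CD3-negative members. The CD3-negative class was therefore low in T cell genes but not empty of them.

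Of the markers named for the cells, IL7R was at 6.79, 9.22, 8.53, 8.86 and 5.28 per 10000 in CD3-negative members, and at 1.15, 3.45, 2.72 and 4.42 in CD3-positive members at d1 to d21. TAC3 was at 49.6, 26.5, 28.9, 23.0 and 5.64 in CD3-negative members, and at 6.31, 0.917, 0.262 and 0.188 in CD3-positive members, where all 11 counts of d1 lay in 1 cell. Both genes were higher in the CD3-negative class in each of the 4 libraries that held both classes.

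The comparison of the 2 classes asked how the innate-like and the T cell members differ beyond CD3. Counts were summed per library and class and tested with edgeR's quasi-likelihood test with the library as a block, over d1, d7, d14 and d21, since d0 held no CD3-positive member. Of 4166 genes tested, 336 (8.07%) passed an adjusted p of 0.05, 242 higher (5.81%) and 94 lower (2.26%) in CD3-negative members, with a median log2 fold change of 0.047 over all genes. Of the 336, 223 had the same sign in all 4 libraries, 195 also passed limma voom, 174 also passed DESeq2 in the same direction, and 163 passed all 3 tools. Of these 163, 89 also passed edgeR with each of the 4 libraries left out in turn. With 4 pairs of sums, edgeR took the spread of a gene almost wholly from the spread shared by all genes, so its p-values are small. The standard error (SE) printed below is the size of the log2 fold change divided by the square root of edgeR's F statistic. It can therefore be too small in the same way. The text says below where a gene did not pass the other tools. CD3-negative members had median depths of 3269, 4585 and 3530 UMIs at d7, d14 and d21, against 6996, 5552 and 4161 in CD3-positive members, and at d7 8.79% of their counts were mitochondrial against 6.18%. With cells thinned to 1000 UMIs 60 genes passed, of 1003 that could be tested. The d1 library had only 4 CD3-positive cells. Without it 6023 genes could be tested and 411 passed, and without d7, d14 or d21 the number was 203, 145 or 203. Of the genes named below that passed all 3 tools, CCR6, IL23R, IKZF2 and DUSP1 no longer passed edgeR without d7, nor did CCR6, IL10, CD5, KLRB1, IKZF2, KLF2 and GRAMD2B without d14, or ID2, KLRB1, IKZF2, JUN and NFKBIA without d21. Of those that passed edgeR but not all 3 tools, TCF7, IRF4, PRDM1, LTA, GZMB, THEMIS, TNFRSF18, IL2RA, STMN1, ITGAE, ITGB7 and MYBL2 no longer passed without at least 1 library.

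The genes with the largest differences were higher in CD3-negative members. TAC3 had a log2 fold change of 5.13 (SE 0.31), GCSAML, a relative of a germinal centre signalling protein, 5.52 (SE 0.41), FAM110D 4.73 (SE 0.44) and SCIN, which severs actin filaments, 4.43 (SE 0.29). SCIN was even between libraries, at 2.12, 2.20, 1.93, 2.55 and 2.11 per 10000 in CD3-negative members, against 0.574, 0.0792, 0.0613 and 0.205 in CD3-positive members. NCR2, which encodes the activating receptor NKp44 of innate lymphocytes, was at 1.27, 0.785, 2.00, 2.24 and 6.77, against 0, 0.192, 0.0886 and 0.522 (log2 fold change 3.97, SE 0.28). KBTBD11 (3.64, SE 0.45), the growth factor gene TGFB3 (3.53, SE 0.36), LTC4S, the enzyme that makes leukotriene C4 (3.50, SE 0.30), and the sodium and calcium exchanger SLC8A1 (3.27, SE 0.32) were the next genes with a symbol that were higher in all 4 libraries. Each of these 9 genes passed all 3 tools. Without d14 the log2 fold changes of TAC3, GCSAML and SCIN were 4.44, 4.73 and 3.80, without d7 that of TGFB3 was 2.69, and without d21 that of SCIN was 5.05, each past the threshold.

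**Figure D3:**
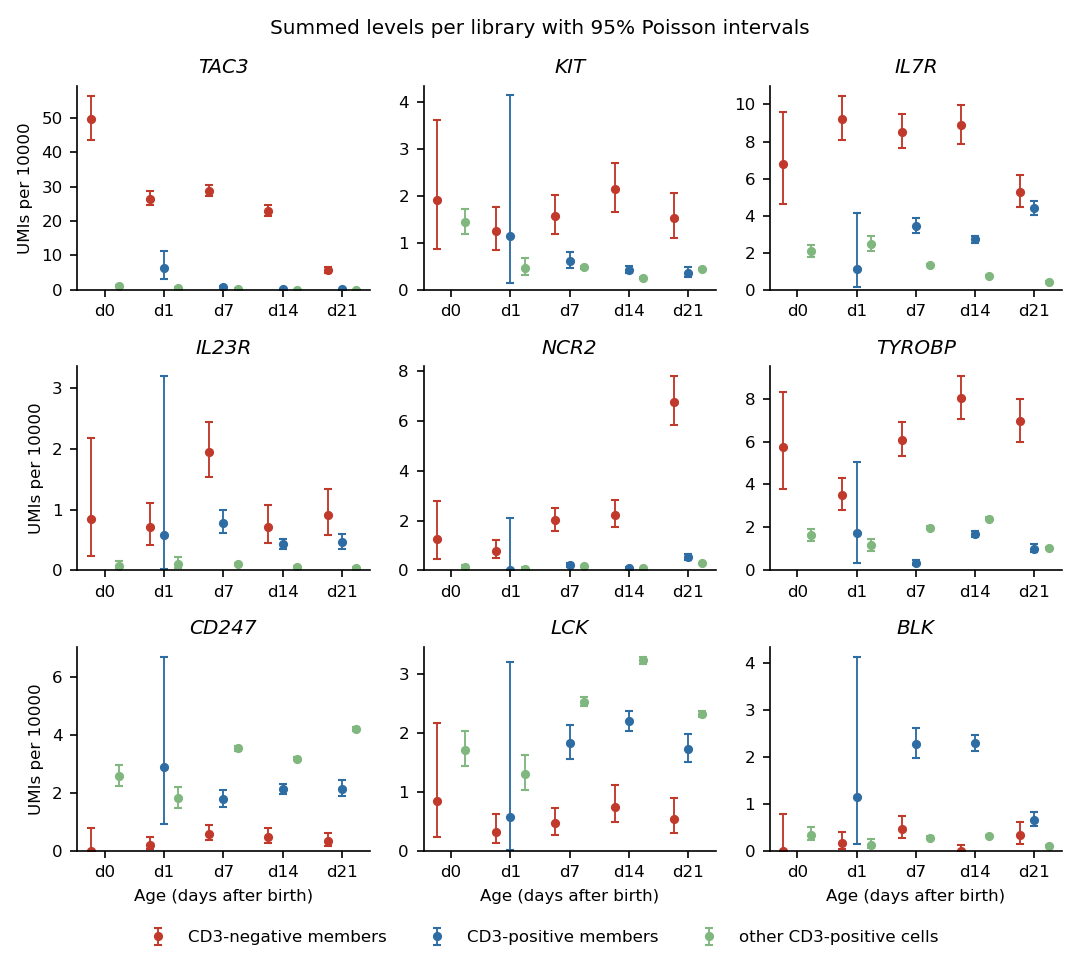
Levels of 9 genes (UMIs per 10000 of the same cells, linear y axes) in CD3-negative members, CD3-positive members and other CD3-positive cells of the library of each age (x axis). Points are sums over the cells of 1 library and bars exact 95% Poisson intervals, and TAC3, KIT, NCR2 and TYROBP were highest in CD3-negative members in each of the 5 libraries.

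Among 28 listed genes of the type 17 programme, 21 could be tested, of which 7 rose and 4 fell in the CD3-negative class (median 0.287). The receptor tyrosine kinase KIT, an ILC marker, was at 1.91, 1.26, 1.57, 2.15 and 1.53 per 10000, against 1.15, 0.611, 0.429 and 0.368 in CD3-positive members (log2 fold change 1.95, SE 0.25). IL7R had a log2 fold change of 1.35 (SE 0.25). The receptor gene IL23R (1.10), the chemokine receptor gene CCR6 (1.07) and ID2 (0.91), a regulator that innate lymphoid cells need, were higher in all 4 libraries and passed all 3 tools. TCF7 (0.75) passed neither other tool. The 4 genes that were lower encode factors active in stimulated T cells, BATF (−1.49), IKZF3 (−1.73), IRF4 (−1.21) and PRDM1 (−1.0), of which BATF and IKZF3 passed all 3 tools. AHR, a sensor of dietary and microbial ligands, had a log2 fold change of 0.56 (SE 0.24) and did not pass the test.

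Of 24 listed genes of cytokines and secreted factors, 13 were tested, 6 were higher and 3 lower. TNF was at 8.69, 4.83, 11.3, 2.43 and 3.60 per 10000 in CD3-negative members and at 0.574, 2.23, 1.60 and 0.865 in CD3-positive members (log2 fold change 1.83, SE 0.26). The lymphotoxin gene LTB, whose product organises lymphoid tissue, was at 28.4, 20.5, 31.6, 28.0 and 8.08 against 14.4, 12.5, 8.30 and 2.85 (1.50, SE 0.23). The neutrophil chemokine CXCL8 (1.55), the B cell factor TNFSF13B (2.57) and LTA (2.24) were also higher, LTA without passing DESeq2. The LTA difference rested on d14, where its level was 9.14 against 0.436, while it was 2.60 against 1.22 at d7 and 0.909 against 0.616 at d21. Without d14 its log2 fold change was 0.95 and did not pass, and without d7 or d21 it was 2.90 or 2.86. CCL5, a T cell chemokine, was lower, at 0, 0.510, 14.6, 22.5 and 15.3 against 13.8, 34.7, 38.0 and 67.0 (−1.70, SE 0.24), where all 24 counts of the d1 CD3-positive members lay in 1 cell. IL10 was at 0, 0, 0.925, 0.311 and 1.38 against 0, 2.41, 3.29 and 2.62 (−1.67, SE 0.28). CCL20, which draws CCR6-bearing cells, was lower as well (−1.75, SE 0.28), and 64 of its 70 counts in CD3-negative members at d14 came from 1 cell. Without d14 its log2 fold change was −2.52. IL26 (−0.73, SE 0.27) and CSF2 (−0.54) did not pass the test, though IL26 passed as lower without d21 (−1.43), and IFNG had no count in any CD3-negative member.

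Of 22 listed T cell receptor and co-receptor genes, 20 are in the matrices and 9 were tested, of which CD247 (−2.13, SE 0.28), LCK (−1.61, SE 0.27), LAT (−1.54) and CD5 (−1.07) were lower in the CD3-negative class with all 3 tools. THEMIS was higher with edgeR alone (1.14). BLK, a Src family kinase, was at 0, 0.157, 0.463, 0 and 0.327 per 10000 in CD3-negative members and at 1.15, 2.28, 2.30 and 0.659 in CD3-positive members (−2.62, SE 0.33). Its level was lower in the CD3-negative class in all 4 libraries, but both counts of the d1 CD3-positive members lay in 1 cell, and the intervals of the classes overlapped at d1 and d21. Without d14 its log2 fold change was −1.83. BLK was also higher in CD3-positive members than in other T cells, as given below.

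The cytotoxic and NK list had 9 tested genes of 18, of which 5 were higher and 1 lower. The higher ones were led by 2 signalling adaptors of innate cells, TYROBP, at 5.73, 3.49, 6.09, 8.02 and 6.95 per 10000 against 1.72, 0.340, 1.68 and 1.01 (log2 fold change 2.95, SE 0.27), and FCER1G, at 6.36, 3.69, 6.71, 8.55 and 8.55 against 1.15, 0.962, 1.81 and 1.89 (2.44, SE 0.26). The protease gene CTSW (2.00) and the receptor gene KLRB1 (1.23) also passed all 3 tools. GZMB, the granzyme of the list that fell, had a log2 fold change of −1.59 (SE 0.31), with edgeR but not all 3 tools, and it was −2.63 without d14, and −0.64 without d21, where it did not pass. It belongs to a family of similar genes, and how reads common to them were counted is not given in the sources used here.

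Of the smaller lists, all 6 of the 9 regulatory genes that could be tested passed edgeR. LAG3 (−2.59) and TNFRSF4 (−2.25), receptors of stimulated T cells, were lower together with IL10 and TNFRSF18 (−0.83), and IKZF2 (0.83) and IL2RA (0.86) were higher, TNFRSF18 and IL2RA with edgeR alone. Without d14 LAG3 had a log2 fold change of −1.86. The dividing list had 6 tested genes, with CENPF (−1.60), TOP2A (−2.01) and STMN1 (−0.99) lower and none higher, CENPF with all 3 tools. Without d14 TOP2A was at −1.25, and STMN1 was at −0.56 and did not pass. The activation list of early response genes had 9 tested genes, of which FOS (1.50), EGR1 (1.25), FOSB (1.24), DUSP1 (1.09), NFKBIA (1.09) and JUN (0.83) were higher, each with all 3 tools, and none was lower. These 6 also passed after thinning. Both tested genes of the naive list, KLF2 (1.25) and TCF7, were higher, KLF2 with all 3 tools. Of 13 homing genes, CCR6 was higher and the integrin genes ITGAE (−0.93) and ITGB7 (−0.84) were lower with edgeR alone. The cell cycle genes RRM2 (−1.86) and MYBL2 (−1.43), and ISG20 (−1.54) and GRAMD2B (−1.52), were the other named genes that were lower in all 4 libraries, MYBL2 with edgeR alone. At d1 the 4 CD3-positive members held 0.0593% of the 1685 ISG20 counts of the library. They held 0.0167% of 5975 for GRAMD2B and 0.165% of 606 for MYBL2. The d1 sign of these 3 genes therefore rested on very few counts.

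**Figure D4:**
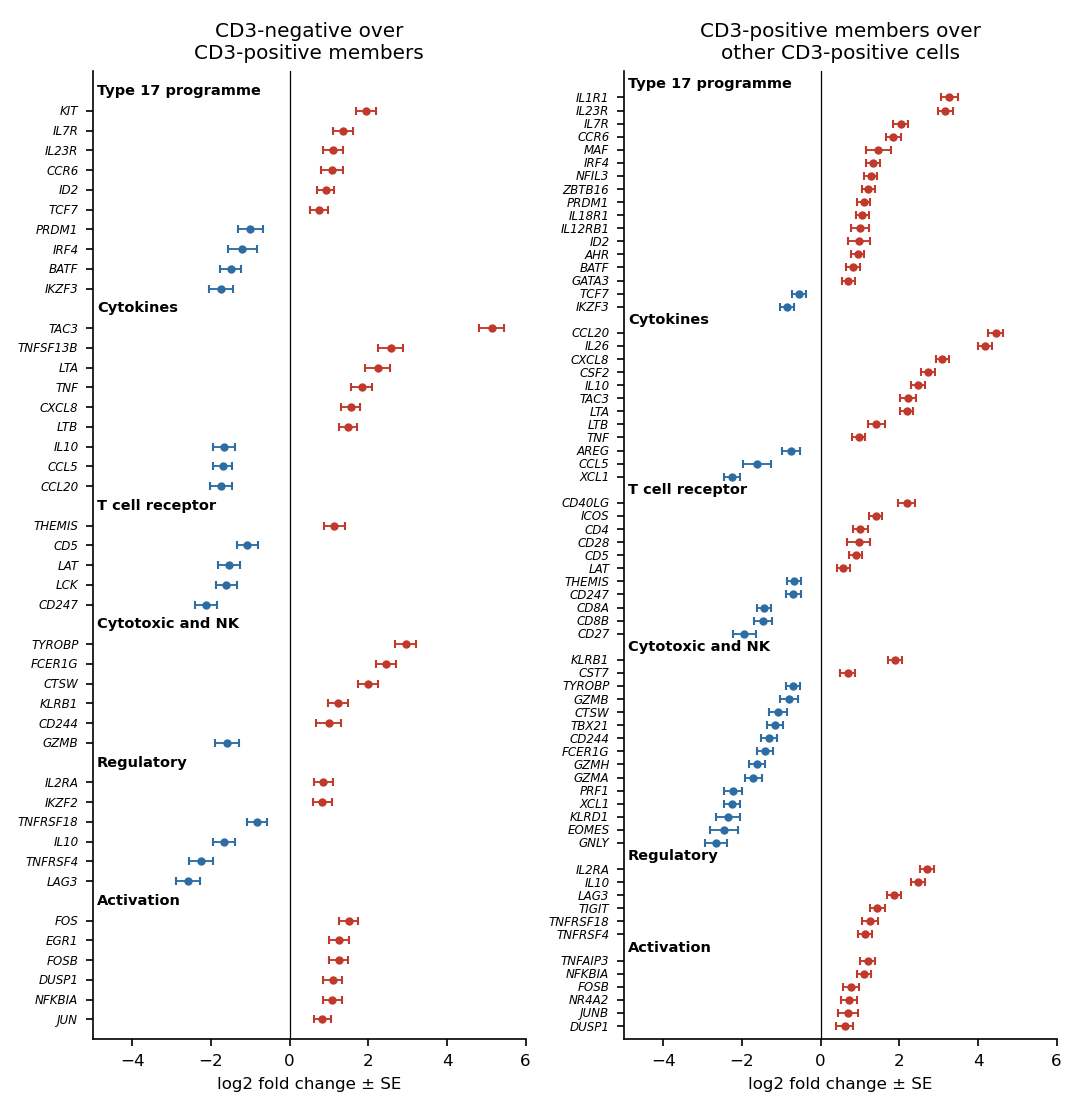
Log2 fold change (x axis) for the genes shown of 6 lists that passed edgeR's test, with the standard error derived from its F statistic. The left panel gives CD3-negative over CD3-positive members, and the right panel CD3-positive members over other CD3-positive cells. On the left, the type 17 list is split, with KIT, IL7R and IL23R higher and BATF and IKZF3 lower, and on the right 13 of the 16 tested cytotoxic genes are lower.

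Genes of other cell types were also counted in the members. Plasma cell genes summed to 7.78 and 4.10 per 10000 in CD3-positive members at d14 and d21, against 0.435 and 1.20 in CD3-negative members, with JCHAIN the highest, and 1 cell at d14 held 1211 of its 2104 counts. Myeloid genes summed to 0, 0.667, 2.08, 12.8 and 1.13 in CD3-negative members, and at d14 C1QA was the highest, with 119 of its 152 counts in 1 cell. LYZ passed edgeR as higher in the CD3-negative class (1.28), and at d7 59 of its 63 counts there came from 1 cell. Fibroblast genes at d14 summed to 8.55 in CD3-positive members, 5.41 in CD3-negative members and 8.35 in other CD3-positive cells. Of the 218913 counts of the erythroid gene HBB at d7, CD3-positive members held 1.23% and CD3-negative members 0.0699%. Erythroid genes were not among those used to mark possible doublets, so the shares below do not cover them. Members with 2 or more UMIs of another cell type, which may be doublets, were 16.7%, 48.3%, 18.0%, 31.9% and 27.2% at the 5 ages, against 18.9%, 52.9%, 24.6%, 31.3% and 25.3% of other CD3-positive cells. Without them 275 genes passed the comparison of the CD3 classes, 198 higher and 77 lower.

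The CD3-negative members were not alike in TAC3. Those with 2 or more TAC3 UMIs numbered 11, 48, 49, 43 and 12, which was 100%, 90.6%, 48.5%, 72.9% and 17.9% of the class. Those with 0 TAC3 UMIs numbered 0, 3, 41, 14 and 52. At d7, d14 and d21, IL7R was at 10.8, 11 and 7.70 per 10000 in the TAC3-bearing cells and at 3.88, 3.34 and 4.38 in those without TAC3, and LTB at 39.6, 35.5 and 10.7 against 14.3, 9.15 and 7.57. CCL5 was at 10.9, 26.9 and 6.37 against 25.7, 12.5 and 18.9, so that its order differed between libraries.

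Cells without TAC3 had been captured at lower depth, with median UMI counts of 1920, 3735 and 2739.5 against 4963, 4734 and 5928.5. Mitochondrial counts made up 13.2%, 5.60% and 5.51% of their counts, against 6.69%, 5.83% and 3.95% in the TAC3-bearing cells. Possible doublets were 22.0%, 7.14% and 25.0% of the cells without TAC3, against 14.3%, 18.6% and 25.0%. At d21, where cells without TAC3 were most of the class, NCR2 was at 5.15 per 10000 in them and CD247 at 0.412. In CD3-positive members of the same library these were at 0.522 and 2.14. As TAC3 counts chose these cells, no test was made.

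TAC3 also marked cells outside the rule. Cells with 5 or more TAC3 UMIs, no CD3E or CD3G and no EPCAM numbered 126, 136, 190, 129 and 18, or 0.828%, 0.962%, 1.85%, 0.797% and 0.107% of kept cells. Of them, 8.73%, 33.1%, 20.5%, 30.2% and 55.6% held 2 or more cytokine UMIs and so were members, and 73.0%, 55.1%, 69.5%, 57.4% and 38.9% held none. At d0 there were thus 126 such cells but only 11 CD3-negative members. Their median depth was 3878 UMIs at d0 and 4407.5 to 6213 later, with 4407.5 at d7, where their cytokine share was 20.5%.

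**Figure D5:**
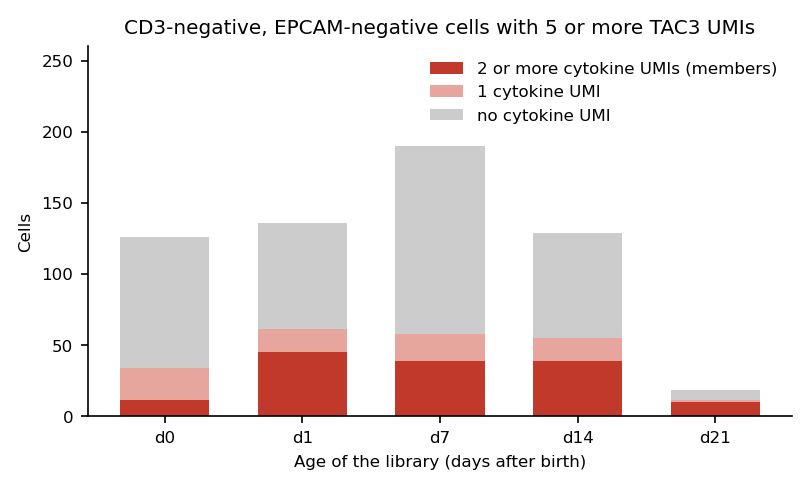
Number of cells (y axis) with 5 or more TAC3 UMIs and no CD3E, CD3G or EPCAM UMI in the library of each age (x axis), stacked by their summed IL17A, IL17F and IL22 UMIs. Cells without a cytokine UMI were 73.0% at d0 and 38.9% at d21, where only 18 such cells were found.

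The comparison of CD3-positive members with the other CD3-positive cells, which held no cytokine UMI, asked what distinguishes these T cells from the T cells around them. The others numbered 323, 187, 2586, 4959 and 6604, and the test used d1 to d21. Of 9081 genes, 966 (10.6%) passed, 526 higher (5.79%) and 440 lower (4.85%), with a median log2 fold change of −0.0321. Of these, 420 also passed limma voom, 404 DESeq2 and 337 all 3 tools, and 246 of the 337 passed edgeR with each library left out in turn. With DESeq2-type size factors in edgeR the split was 475 higher and 579 lower. Without d7, d14 or d21, 571, 353 or 567 genes passed. Members had median depths of 6996, 5552 and 4161 UMIs at d7, d14 and d21, against 4328.5, 4301 and 4240 in the others. With cells thinned to 1000 UMIs 366 genes passed, of 4012 that could be tested.

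Of 26 tested genes of the type 17 programme, 16 rose and 2 fell in members, 13 of these 18 with all 3 tools, and 8 did not pass (median 0.962). IL23R was at 0.574, 0.781, 0.426 and 0.462 per 10000 in members at d1 to d21 and at 0.101, 0.0997, 0.0552 and 0.0451 in the others (log2 fold change 3.16, SE 0.19), with 1 count behind the d1 value of members. The cytokine receptor genes IL1R1 (3.27, SE 0.22), IL18R1 (1.06) and IL12RB1 (1.00), the chemokine receptor gene CCR6 (1.85), and the factor genes IRF4 (1.33), NFIL3 (1.28), ZBTB16 (1.21), ID2 (0.98), AHR (0.94) and BATF (0.82) passed all 3 tools. ZBTB16 encodes PLZF, a factor of innate-like T cells. IL7R (2.03), MAF (1.47), PRDM1 (1.09) and GATA3 (0.70) passed edgeR but not all 3, and IKZF3 (−0.86) and TCF7 (−0.54) were lower, TCF7 without passing limma voom. ID2 no longer passed edgeR without d7, d14 or d21, and without d21 the log2 fold change of IL7R was 1.42. GATA3 and TCF7, and of the genes below CST7, CD4, CCR2, CCR4, ITGAE, LEF1, CCR7, KLF2, MKI67 and CENPF, no longer passed without at least 1 library.

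Of 16 tested genes of other secreted factors, 9 rose, 3 fell and 4 did not pass in the same cells. CCL20 was at 0, 2.68, 3.68 and 2.98 per 10000 in members at d1 to d21 and had the largest log2 fold change of the list (4.45, SE 0.19). IL26, a relative of IL-10 beside IL22 in the genome, was at 0, 2.21, 2.20 and 1.19 in members and at 0, 0.0641, 0.179 and 0.0914 in the others (4.17, SE 0.18). CXCL8 (3.09), the growth factor gene CSF2 (2.72), IL10 (2.47), TAC3 (2.22), LTA (2.18), LTB (1.41) and TNF (0.97) were higher with all 3 tools. Without d7 the log2 fold change of CSF2 was 2.11 and that of TAC3 2.81. CCL5 (−1.62) and XCL1 (−2.25) were lower with all 3 tools.

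Most cytotoxic genes were lower by edgeR. Of 16 tested genes 13 fell, 7 of them with all 3 tools, and KLRB1 (1.90) and CST7 (0.69) rose, CST7 without passing DESeq2 (median −1.36). GNLY, the lytic granulysin, was at 0, 3.61, 3.88 and 0.488 per 10000 in members at d1 to d21 and at 30.3, 14.9, 14.7 and 6.75 in the others (−2.66, SE 0.28, and −3.25 without d14), though it did not pass DESeq2. Perforin, PRF1, was at 0, 0.0792, 0.0988 and 0.154 against 0.219, 0.546, 0.592 and 0.480 (−2.23, SE 0.24). The granzyme genes GZMM (−2.75) and GZMA (−1.71), the receptor gene KLRK1 (−2.57) and the factor genes EOMES (−2.45) and TBX21 (−1.16) of cytotoxic and type 1 cells were lower too, EOMES without passing all 3 tools.

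Of 19 tested T cell receptor and co-receptor genes 6 rose, 5 fell and 8 did not pass (median 0.0473). CD8A (−1.44) and CD8B (−1.46) were lower, CD8A with all 3 tools. CD247 and CD27 were also lower with all 3 tools. THEMIS was lower, and CD5, CD28 and LAT higher, with edgeR but not all 3 tools. CD8A was at 0, 0.396, 0.453 and 0.659 per 10000 in members, against 0.270, 1.11, 1.53 and 1.66 in the others. CD4 (1.01) was higher with edgeR alone, at 0, 0.328, 0.647 and 0.591 in members, and without d21 its log2 fold change was 0.45 and did not pass. CD40LG (2.19) and ICOS (1.40), which helper T cells use to signal to other cells, were higher with all 3 tools. The same held for IL2RA (2.70), LAG3 (1.86), TIGIT (1.43) and TNFRSF4 (1.13) of the regulatory list, whose 8 tested genes included 6 that rose and none that fell, while FOXP3, the factor of regulatory T cells, had 1, 8 and 1 counts in members at d7, d14 and d21.

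Of 11 tested homing genes 3 were higher and 3 lower. The receptor genes CCR9 (−2.36) and CXCR3 (−1.99) were lower and CCR6 higher with all 3 tools. CCR2 (0.91) and CCR4 (1.01) were higher and ITGAE (−0.51) lower with edgeR alone, and CCR4 was at 0.33 without d21 and did not pass. Of 5 tested naive T cell genes 4 were lower, LEF1 (−1.12), CCR7 (−0.76) and KLF2 (−0.59) beside TCF7, none of them with all 3 tools. Of the dividing list, MKI67 (−0.67) and CENPF (−0.66) were lower, neither with all 3 tools, and none of 7 was higher.

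Outside the lists, ESPN, which encodes the actin-bundling protein espin, had a log2 fold change of 4.21 (SE 0.18). It was at 0.574, 2.05, 1.61 and 0.796 per 10000 in members at d1 to d21 and at 0.101, 0.142, 0.0797 and 0.0435 in the others. BLK (2.96, SE 0.18), CD109, a surface protein that binds transforming growth factor β (2.95, SE 0.19), and the coactivator gene CITED4 (2.90, SE 0.17) were higher in all 4 libraries and with all 3 tools. CD109 was higher again in CD3-negative members, at 4.24, 2.08, 3.13, 3.36 and 2.91 against 1.15, 0.713, 0.307 and 0.582 in CD3-positive members. At d1 the 4 CD3-positive members held 0.0177% of the 5635 ESPN counts of the library and 0.187% of its 1070 CD109 counts. Both of these d1 levels rested on very few counts. DIXDC1 (−2.65, SE 0.38) was the remaining named gene that was lower, and it did not pass limma voom and was at −3.44 without d14.

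Members that held IL22 alone were compared with those that held IL17A or IL17F alone, over all 5 libraries. Of 3272 genes, 41 passed (1.25%), 19 higher (0.581%) and 22 lower (0.672%), 190 had an unadjusted p under 0.05, and 11 of the 41 had the same sign in all libraries. Only 3 genes passed limma voom and 14 DESeq2, and 2 passed all 3 tools. These were GZMB and NCR2, which were named for this after their values had been seen.

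GZMB was at 0, 0, 3.14, 4.61 and 8.20 per 10000 in IL22-only members and at 0, 0, 0.412, 1.91 and 3.21 in IL17-only members (log2 fold change 1.67, SE 0.20). It was higher in all 3 libraries in which these members held it, and in CD3-positive members alone its log2 fold change was 1.75. GZMB passed edgeR without d0, d1, d7 or d21, and without d14 it could not be tested. NCR2 was at 1.28, 2.25, 1.48, 0.565 and 2.23 against 1.49, 0.311, 0.353, 0.200 and 0.561 (1.84, SE 0.25), higher in 4 of 5 libraries. NCR2 was also higher in the CD3-negative class. That class held 2 of 2, 9 of 13, 29 of 55, 41 of 208 and 47 of 205 IL22-only members at d0 to d21. Of IL17-only members it held 8 of 9, 31 of 34, 43 of 93, 6 of 148 and 8 of 49. At d1 its part was thus larger among IL17-only members. The part of the CD3 class in the NCR2 difference was not tested.

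The named genes with the same sign in all 5 libraries passed edgeR but not all 3 tools. XCL1 (1.29), SCML4 (1.21) and ZBTB20 (1.13) were higher in IL22-only members in all 5 libraries after normalization, although XCL1 was level at d14 (0.339 against 0.340 per 10000), had a log2 fold change of 1.97 without d14, and was at 0.74 without d1, where it did not pass. IL2RA (−0.70), TIMP1 (−0.66), LGALS1 (−0.67), CXCL8 (−0.64), HERC2 (−0.91) and POU2F2 (−0.87) were lower in all 5. Each of these 9 genes no longer passed edgeR when at least 1 of the libraries was left out. At d0 the classes were 2 IL22-only and 9 IL17-only cells. LGALS1, HERC2, POU2F2 and ZBTB20 had 1 count each in all d0 members, so their sign there rested on that count. Of the lists, 17 of 19 tested type 17 genes, all 10 T cell receptor and co-receptor genes and all 9 activation genes did not pass. TCF7 (0.83), LTA (0.93) and FCER1G (0.73) were higher and ZBTB16 (−1.04), CCL20 (−1.23) and LAG3 (−0.83) lower, none with all 3 tools. They too no longer passed without at least 1 library. CCL20 was at −0.45 without d14 and −1.98 without d21. TIMP1, an inhibitor of matrix proteases, was at 8.99, 15.6, 15.6, 9.04 and 10.6 against 12.2, 19.5, 33.4, 11.4 and 17.2. JCHAIN was called higher (3.54), but 1211 of its 1432 counts at d14 and 332 of 436 at d21 lay in 1 cell each. Without d0, d7, d14 or d21 the number of genes was 27, 22, 13 or 25, and without possible doublets LGALS1 had a log2 fold change of 0.081.

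The CD3-negative members were last set beside CD3-negative cells with 2 or more UMIs of NKG7, KLRK1 and NCR1, a gate for NK cells. These 102, 191, 534, 1196 and 684 cells also held myeloid genes, whose summed level was 22.0, 168, 18.1, 83.7 and 9.28 per 10000, so they are not called NK cells here. Of 4229 genes 602 passed (14.2%), 298 higher (7.05%) and 304 lower (7.19%) in members, and 478 passed all 3 tools. TAC3 (3.87, SE 0.37), IL7R (3.36, SE 0.31), IL23R (3.35, SE 0.25) and IL1R1 (3.23, SE 0.33) were higher in members in all 5 libraries. Of 8 tested T cell receptor and co-receptor genes 3 were higher in members and none lower. These were ICOS (3.05) and SKAP1, both with all 3 tools, and THEMIS, which did not pass all 3. Granulysin, GNLY, was lower (−5.34, SE 0.62), as were the macrophage genes C1QA (−5.07), C1QB (−5.37), C1QC (−4.64) and CD163 (−4.35). Without d7 or d14, 358 or 373 genes passed. The log2 fold changes of C1QA, C1QB and C1QC were −3.71, −3.95 and −3.49 without d1 and −7.72, −10.4 and −7.28 without d14, and that of CD163 was −3.61 without d1. GNLY was at −4.73 without d1 and −6.53 without d7.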

How the data were processed

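Male piglets of Large White sows were sampled at d0, d1, d7, d14 and d21, and cells of 5 piglets per age were mixed into 1 droplet library. The authors deposited raw UMI counts per gene and barcode. The submitters' processing notes name Cell Ranger 3.1.0, STAR and the build susScr11, which is Sscrofa11.1, and the study states a forced number of cells and describes fewer cells than the matrices hold. The labels and the paper name different versions of the library kit.

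Here barcodes with at least 200 genes were kept, 72701 of 73564, over 20648 genes. The kept cells held 83394038, 80196009, 47921183, 91863866 and 69522315 counts. No doublet caller was run. Cells with 2 or more UMIs of B cell, plasma cell, myeloid, fibroblast, endothelial or epithelial genes were marked as possible doublets. Levels are summed counts per 10000 counts of the same cells with exact Poisson 95% intervals, and shares have Clopper-Pearson intervals (SciPy 1.17.1).

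Counts summed per library and class were tested with edgeR 4.0.16 (filterByExpr, TMM, quasi-likelihood test, library as a block, Benjamini-Hochberg adjustment over all genes tested, threshold 0.05). limma voom (limma 3.58.1) and DESeq2 1.42.0 were alternatives in R 4.3.3. Only the edgeR step was run on simulated counts, for the comparison of the CD3 classes. These counts were drawn without expression differences between libraries. A fold change sums cells of 5 mixed piglets per library, so its p-value measures the spread between libraries of different ages. IL17A, IL17F, IL22, EPCAM, CD3E and CD3G, and for the NK gate NKG7, KLRK1 and NCR1, were left out of the tests. The design named 5 libraries, but d0 held no CD3-positive member, so both comparisons with that class used 4.

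The members, gene lists and tests were chosen with earlier results of these data known. Named genes are those of the lists and, per comparison, the 10 largest changes in each direction with the same sign in all libraries. Genes without a symbol were counted but not named. limma voom, the limit of 20 cells per class and the comparison within CD3-positive members were chosen after seeing the data. Gene positions come from RefSeq's annotation of Sscrofa11.1, matched by symbol. Results for 1 gene of the type 17 list are not reported here, though list counts include it.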

Additional observations from a re-analysis of the deposited data

How the results depend on the processing

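The share of members moved beyond its interval under several alternatives. At d0, d1, d7, d14 and d21 it was 0.0394%, 0.297%, 1.86%, 2.75% and 1.63% with a minimum of 3 UMIs, 0.250%, 0.643%, 4.01%, 4.94% and 3.39% with a minimum of 1 UMI, and 0.00722%, 0.198%, 1.62%, 1.78% and 1.47% after thinning to 1000 UMIs. With possible doublets left out of the members only, it was 0.220%, 1.87%, 2.21% and 1.45% at d1, d7, d14 and d21. Marked cells that were not members stayed in the total, so this share could only fall. Among cells under 20% mitochondrial counts it was 0.202%, 2.58%, 3.55% and 2.38% at d0, d7, d14 and d21, and with at least 500 genes per cell 2.72% and 2.31% at d7 and d21. The CD3-negative part of the members was 100%, 100%, 64.1%, 25.0% and 48.5% after thinning, 22.2% and 26.2% at d14 and d21 with a minimum of 1 UMI, 95.2% at d1 with a minimum of 3, and 100% at d0 without possible doublets. The IL22-only part at d0 was 0% after thinning, where 1 member was left. Beyond the fall with possible doublets left out, the cause of these differences was not tested.

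For CD3-negative against CD3-positive members, 336 genes became 98 without the library block, 179 with DESeq2, 195 with limma voom, 60 after thinning and 145 to 411 with 1 library left out. For IL22-only against IL17-only members, 41 became 14 with DESeq2, 3 with limma voom, 27 with a minimum of 3 UMIs, 24 without possible doublets, 7 after thinning and 13 to 50 with 1 library left out. Without the library block edgeR called 0 genes there, with 60 at an unadjusted p under 0.05. For CD3-positive members against other CD3-positive cells, 966 became 101 without the block, 409 with DESeq2, 420 with limma voom, 366 after thinning and 353 to 945 with 1 library left out. For the cells of the NK gate, 602 became 1285 without a filter on low counts, 289 without the block, 364 without possible doublets, 101 after thinning and 358 to 889 with 1 library left out. Fewer genes could be tested after thinning.

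For the 153 results on named genes, 2257 comparisons with an alternative gave 1898 with the same direction and the same side of the threshold, 357 that no longer passed and 1 that passed only then. The direction reversed once, for LGALS1 between IL22-only and IL17-only members (log2 fold change 0.081 without possible doublets). The library block pairs the classes within a library, and the labels give no replicate numbers shared between ages that could pair libraries. The 11, 53 and 59 CD3-negative members of d0, d1 and d14 and the 4 CD3-positive members of d1 limit the precision of their levels.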

Other observations

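Genes on the other side of the IL-17 and IL-22 pathway were measured in the surrounding cells, with no test between ages. In epithelial cells (EPCAM of 2 or more, no CD3E or CD3G), the receptor gene IL22RA1 was at 0.265, 0.181, 0.112, 0.0765 and 0.0817 per 10000 counts at d0, d1, d7, d14 and d21. IL17RA was at 0.435, 0.613, 0.410, 0.301 and 0.284, and IL17RC at 0.0927, 0.136, 0.161, 0.0981 and 0.0653. IL22RA1 and IL17RA were highest at d0 or d1 and IL17RC at d7. Of 14 listed genes taken as epithelial responses to IL-17 or IL-22, 2 were highest at d0 (MUC13, CCL20), 2 at d1 (S100A8, S100A9), 4 at d7 (DUOX2, DUOXA2, LCN2, MUC1), 3 at d14 (CLDN2, FUT2, REG4) and 3 at d21 (CXCL8, PIGR, SAA3), so the list had no common course. DUOX2, which makes hydrogen peroxide, was at 0.0046, 0.511, 0.883, 0.615 and 0.127, and its partner DUOXA2 at 0.00311, 0.143, 0.348, 0.282 and 0.0719. The mucin gene MUC13 was at 8.12, 6.18, 0.990, 1.09 and 1.44, and the serum amyloid gene SAA3 at 0.161, 0.246, 0.463, 0.00478 and 3.97. PIGR, the carrier of secreted antibodies, was at 0.00104, 0.00976, 0.128, 1.95 and 4.67, and REG4, a lectin of secretory cells, at 1.43, 1.50, 6.81, 10.1 and 3.04. CCL20 in epithelium was at 4.83, 4.68, 0.433, 0.538 and 4.15, low in the libraries of d7 and d14. The epithelial cells numbered 7755, 5024, 351, 195 and 631, and their composition was not matched between ages.

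Of the cytokines that act on members, IL1B in cells of the myeloid gate was at 2.81, 5.60, 7.95, 1.98 and 2.90 per 10000. IL23A had 1, 7, 10, 13 and 19 counts in whole libraries, and IL12B had 16, 29, 51, 136 and 29. IL22RA2, which encodes the soluble IL-22 binding protein, had 3, 36, 134, 539 and 57 counts. TACR3, the receptor gene for neurokinin B, had 0, 6, 0, 0 and 2 counts, so it was near the limit of detection at this depth.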
